A study of Mus musculus with 4 samples.

Results

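The genes described here are 8 that mark the podocyte, the epithelial cell that wraps the capillaries of the glomerulus: Nphs1, Magi2, Plce1, Podxl, Ptpro, Synpo, Wt1 and Cdkn1c. They were taken by their symbols from a table of 54078 genes, and each symbol was found once. The table holds 4 RNA-seq libraries of whole mouse kidney, 2 labelled WT and 2 labelled KO, each made from kidneys of 3 mice pooled. WT mice were Apela flox/flox littermates without Cre. KO mice (ApelaKsp KO) were Apela flox/flox with a Cre under the Ksp-cadherin promoter, which drives expression in renal tubular epithelial cells, so the deletion was not directed at podocytes. Apela encodes the peptide hormone ELABELA (ELA). The mice were adult, age-matched males, and the labels give a C57BL/6 and 129S4/SvJae background while the study's methods name C57BL/6. In every pool, both renal pedicles had been clamped for 30 min (bilateral ischemia/reperfusion, I/R) and kidneys were taken at day 3, so there is no uninjured kidney among these libraries and every value is from an injured one. The study built the KO mice to ask what tubular ELA does in the injured kidney, and the comparison below asks whether the podocyte genes differed between the genotypes at that time.

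Podocytes hold the glomerular filter together. Their interlocking foot processes are joined by the slit diaphragm, a junction built on nephrin, while a coat of sialylated proteins keeps the processes apart and an actin cytoskeleton keeps their shape. Mature podocytes do not normally divide, and their loss or the loss of these proteins leads to protein in the urine.

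The libraries held 16045724 to 16927742 reads on genes. Levels are given as FPKM, fragments per kilobase of gene with the deposited scaling between libraries, which allows genes to be compared per length. The targeted gene had 85 and 79 reads in WT and 9 and 4 in KO, equal to 5.27 and 4.57 FPKM against 0.536 and 0.245. Both KO pools lay far below both WT pools for Apela, with a log2 difference of -2.62 (SE 0.22, adjusted p = 0.466 by limma with Benjamini-Hochberg adjustment over all tested genes). The series text names adipose tissue as the RNA source and the sample labels name kidney. The proximal tubule transporter gene Slc34a1 stood at 365 to 898 FPKM, and none of the kidney cell markers listed here was at 0 in any library. No source says that the 2 pools of a genotype differ in more than the mice pooled, so every p-value measures the spread between these pools only.

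RefSeq promoter windows, the 250 bases before a transcript start on GRCm38.p6, were matched for 4 of the 8 genes. The windows of Nphs1 and Plce1 lay in exons of the same gene, held 0 matches to the motifs given below and are not printed. Those printed are the windows of Ptpro, the gene with the lower level in both KO pools, and of Magi2, whose FPKM sums transcripts from an upstream and an internal start. Bases in capitals are matches to a searched motif, and all are written 5′ to 3′ on the plus strand.
Magi2 upstream start, chr5:19226796-19227035, the 240 bases before its first exon: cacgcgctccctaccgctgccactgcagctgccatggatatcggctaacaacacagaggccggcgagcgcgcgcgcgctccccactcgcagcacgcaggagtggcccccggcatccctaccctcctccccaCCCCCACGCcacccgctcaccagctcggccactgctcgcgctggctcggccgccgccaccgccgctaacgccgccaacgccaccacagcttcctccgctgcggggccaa
Magi2 internal start, chr5:19907268-19907517, in an intron: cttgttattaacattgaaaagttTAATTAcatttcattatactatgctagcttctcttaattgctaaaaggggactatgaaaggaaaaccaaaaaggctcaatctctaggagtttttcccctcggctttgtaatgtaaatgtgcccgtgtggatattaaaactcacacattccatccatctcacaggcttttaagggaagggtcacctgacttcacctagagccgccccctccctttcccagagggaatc
Ptpro, chr6:137252049-137252298: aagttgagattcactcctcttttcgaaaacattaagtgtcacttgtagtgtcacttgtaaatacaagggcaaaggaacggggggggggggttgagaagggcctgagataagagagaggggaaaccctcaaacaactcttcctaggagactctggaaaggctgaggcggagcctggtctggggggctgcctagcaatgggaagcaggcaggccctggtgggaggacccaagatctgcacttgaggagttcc
The 4 motifs searched on both strands were GCGTGGGNG and GCGGGGGCG, which are forms of the GC-rich element bound by WT1 and by EGR1 and cannot match at the same position, TAATTA, a homeodomain core that reads the same on both strands, and TGCTGA, the first part of the element bound by MAF proteins. The upstream Magi2 window held 1 GCGTGGGNG on the minus strand, a motif found in 1.65% of 32851 RefSeq windows. The internal Magi2 window held 1 TAATTA, found in 4.84% of windows. The Ptpro window held none of the 4, the other 2 of which, GCGGGGGCG and TGCTGA, were found in 2.57% and 16.1% of windows. GC content was 72% over the upstream Magi2 window, 41.2% over the internal one and 53.6% over that of Ptpro, beside a median of 52.4% over all windows. These matches are descriptions of sequence, and no binding was measured.

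The podocyte genes did not pass the test between ApelaKsp KO and WT kidneys. By limma on log2(FPKM + 0.5), 0 of the 8 had an adjusted p under 0.05, beside 0 of 15414 genes tested (0%), and 0 of the 8 had an unadjusted p under 0.05, beside 974 genes (6.32%). A fit with voom weights on the reads also called 0 genes, with 970 at an unadjusted p under 0.05. For 6 genes the KO mean was the higher and for 2 the lower, and the median log2 difference was 0.09 beside 0.0071 over all tested genes. For 3 genes (Podxl, Synpo and Cdkn1c) both KO pools lay above both WT pools, as they did for 19.7% of all tested genes. For Ptpro both KO pools lay below, as for 18.1% of all tested genes, and for 4 genes the pools overlapped. With whole kidney RNA, fewer podocytes and less of a transcript per podocyte cannot be told apart. The 95% interval of the difference was widest for Wt1, from 0.645-fold to 1.77-fold (with a pseudocount of 0.1 for Plce1, from 0.488-fold to 2.26-fold).

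The 8 genes spanned a wide range of levels, and their order was the same in every pool apart from KO replicate 1, where Wt1 was above Ptpro. Over the 4 pools Podxl averaged 36.7 ± 5.11 FPKM (SD, n = 4) and Plce1 0.531 ± 0.0638, a ratio of 69.2. Between them came Synpo at 9.73 ± 1.41, Cdkn1c at 6.14 ± 0.772, Nphs1 at 3.13 ± 0.266, Ptpro at 1.98 ± 0.182, Wt1 at 1.55 ± 0.417 and Magi2 at 0.806 ± 0.0469. The lowest pool of each gene lay above the highest pool of the next, except that Ptpro and Wt1 overlapped, with a Ptpro level 0.874 to 1.80 times that of Wt1 in the same library. Podxl alone made up 58.3% to 61.9% of the summed FPKM of the 8 genes in each pool. The coefficient of variation over the pools ran from 5.83% for Magi2 to 26.9% for Wt1. All 8 passed the filter on low values, a mean of at least 0.5 FPKM, with Plce1 just above it.

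**Figure D1:**
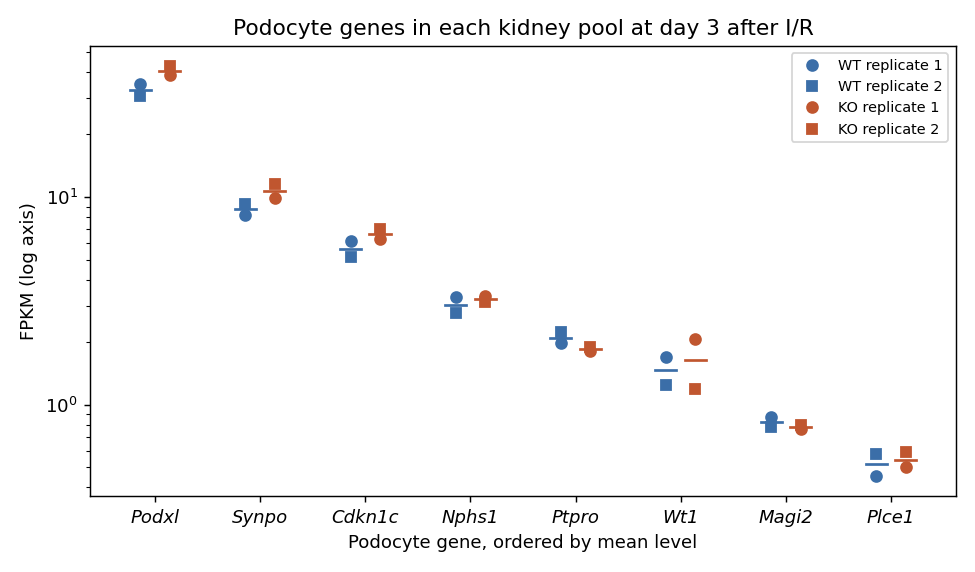
FPKM (log axis) of the 8 podocyte genes in each WT (blue) and KO (red) pool at day 3 after I/R, circles for replicate 1, squares for replicate 2 and bars for the mean of 2 pools. Levels fall from Podxl at 36.7 FPKM on average to Plce1 at 0.531, and the ratio between pools of a genotype is largest for Wt1 in the KO pools, at 2.07 and 1.19.

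Of the 8 genes, those of the slit diaphragm and its signaling are Nphs1, Magi2 and Plce1, and the pools of each overlapped between genotypes. Nphs1 (ENSMUSG00000006649, chr7:30458315-30487223, plus strand) encodes nephrin, the adhesion protein that bridges neighbouring foot processes. It stood at 3.32 and 2.76 FPKM in WT and at 3.32 and 3.14 in KO, from 314 to 368 reads. WT replicate 2 was the lowest pool, and both KO pools were at or below the level of WT replicate 1 to within counting error, so the genotypes overlapped. The log2 difference was 0.08 (SE 0.14, adjusted p = 0.934 by limma), with a 95% interval of 0.812-fold to 1.38-fold. Nphs1 shares 183 exonic bases with the pseudogene Rps12-ps4 on the other strand, which was given 76 to 108 reads. It shares 597 with the antisense gene Nphs1os, which was given 0 or 1 reads. The library protocol does not mark strand, so some reads of these genes cannot be assigned with certainty.

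Magi2 (ENSMUSG00000040003, chr5:19227036-20704792, plus strand) encodes a scaffold protein that binds nephrin at the slit diaphragm and is also made in other tissues. Its levels were 0.872 and 0.784 FPKM in WT and 0.764 and 0.803 in KO. The WT pools bracketed the higher KO pool, and all 4 values lay within the 95% counting interval of WT replicate 1, 0.742 to 1.02. The log2 difference was -0.05 (SE 0.20, adjusted p = 0.975 by limma), with a 95% interval of 0.667-fold to 1.40-fold, and ran from -0.10 without WT replicate 2 to -0.00038 without WT replicate 1. The value is a single sum over the transcripts from both starts shown above, which per-gene FPKM does not separate. Magi2 shares 203 exonic bases with the non-coding gene Gm29254 on the same strand, which was given 0 or 1 reads. When the reads were scaled to the total on genes, both KO pools of Magi2 lay below both WT pools. The share of all tested genes that did so under that scaling was not counted.

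Plce1 (ENSMUSG00000024998, chr19:38481109-38785030, plus strand) encodes phospholipase C epsilon, a signaling enzyme whose loss causes a childhood nephrotic syndrome. It had 0.455 and 0.578 FPKM in WT and 0.501 and 0.589 in KO, from 117 to 159 reads. Replicate 2 was the higher in both genotypes, and the ranges overlapped over most of their length. The log2 difference was 0.04 (SE 0.24, adjusted p = 0.982 by limma). At these read numbers counting alone gives a coefficient of variation of 7.93% to 9.25%.

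Of the genes of the apical surface, Podxl was the higher in KO and Ptpro the lower, neither past the test. Podxl (ENSMUSG00000025608, chr6:31519488-31563981, minus strand) encodes podocalyxin, the sialylated protein whose charge keeps the filtration slits open, and it is also made by endothelium. It stood at 34.8 and 30.7 FPKM in WT and at 38.7 and 42.5 in KO, from 2895 to 3791 reads. The KO pools were the higher without overlap, and the 95% counting intervals of the 4 pools did not meet, within a genotype as well as between them. The KO mean was 1.24 times the WT mean, and the log2 difference of 0.31 (SE 0.13) had the smallest p of the 8, unadjusted 0.0677 and adjusted 0.787 by limma. Its 95% interval ran from 0.977-fold to 1.57-fold and so included no difference.

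Ptpro (ENSMUSG00000030223, chr6:137252319-137463233, plus strand) encodes GLEPP1, a receptor tyrosine phosphatase of the apical foot process membrane. Its levels were 1.98 and 2.23 FPKM in WT and 1.81 and 1.89 in KO, from 204 to 258 reads. It was the only one of the 8 with both KO pools below both WT pools, but the counting intervals of WT replicate 1, 1.72 to 2.26, and KO replicate 2, 1.64 to 2.16, overlapped. The log2 difference was -0.15 (SE 0.15, adjusted p = 0.870 by limma), with a 95% interval of 0.689-fold to 1.18-fold, and it was -0.08 when WT replicate 2 was left out. Set against Podxl in the same library, the Ptpro level was 0.0568 and 0.0727 in WT and 0.0468 and 0.0444 in KO. Both KO ratios were the lower, a contrast chosen after the values were seen and not tested.

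Synpo (ENSMUSG00000043079, chr18:60593973-60660142, minus strand) encodes synaptopodin, the actin-associated protein of mature foot processes. It had 8.18 and 9.23 FPKM in WT and 9.94 and 11.5 in KO, from 1254 to 1787 reads. Both KO pools were the higher, although the pools within each genotype lay farther apart than the nearest pools of the 2 genotypes. The KO mean was 1.23 times the WT mean, with a log2 difference of 0.29 (SE 0.13, adjusted p = 0.797 by limma) and a 95% interval of 0.953-fold to 1.56-fold. Leaving out KO replicate 2 gave 0.18. When the reads were scaled to the total on genes instead of taken as deposited, the Synpo pools overlapped.

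Of the nuclear genes, Wt1 (ENSMUSG00000016458, chr2:105126529-105173616, plus strand) encodes the transcription factor that maintains podocyte identity, and it varied most. It stood at 1.70 and 1.24 FPKM in WT and at 2.07 and 1.19 in KO, from 120 to 215 reads. KO replicate 1 was the highest and KO replicate 2 the lowest of the 4, so the KO range enclosed the WT range. The 2 KO pools differed 1.74-fold, and their counting intervals, 1.81 to 2.37 and 0.989 to 1.43, did not meet. The log2 difference between genotypes was 0.10 (SE 0.28, adjusted p = 0.960 by limma), and its direction depended on the pool left out, from -0.21 without KO replicate 1 to 0.40 without KO replicate 2.

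Cdkn1c (ENSMUSG00000037664, chr7:143458339-143461050, minus strand) encodes p57, a cyclin-dependent kinase inhibitor kept on in podocytes that have left the cell cycle. Its levels were 6.13 and 5.13 FPKM in WT and 6.27 and 7.01 in KO, from 180 to 232 reads. The KO pools were again the higher, but both lay within the counting interval of WT replicate 1, 5.31 to 7.04. The log2 difference was 0.22 (SE 0.14, adjusted p = 0.807 by limma), with a 95% interval of 0.902-fold to 1.51-fold. Leaving out WT replicate 2 gave 0.10 and leaving out WT replicate 1 gave 0.34. This is the shortest of the 8 genes, with 2039 exonic bases, so its reads were fewer than its FPKM alone would give. It shares 625 of these bases with the antisense gene Gm44732, which was given 0 or 1 reads. How reads in shared bases were counted is not known, so the Cdkn1c level carries that uncertainty.

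The 8 genes did not vary as a block from pool to pool. Centred on each gene's own mean, the average log2 level of the 8 was -0.01 in WT replicate 1, -0.09 in WT replicate 2, 0.05 in KO replicate 1 and 0.05 in KO replicate 2. KO replicate 2 was the highest pool for 4 genes but the lowest for Wt1. WT replicate 2 was the lowest for 3 genes, Nphs1, Podxl and Cdkn1c, but the highest for Ptpro. The range of a gene over the pools was 0.12 on the log2 scale for Magi2 and 0.60 for Wt1.

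**Figure D2:**
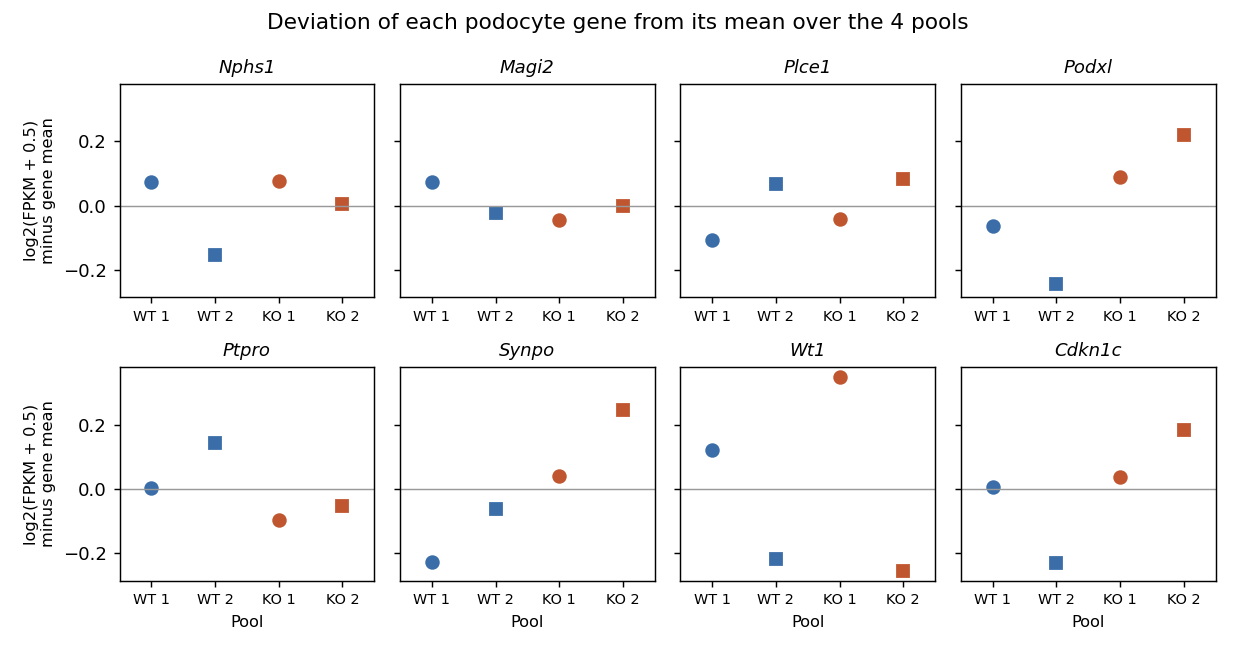
Deviation of each podocyte gene from its mean over the 4 pools, as log2(FPKM + 0.5), with WT pools in blue, KO pools in red, circles for replicate 1 and squares for replicate 2. Podxl, Synpo and Cdkn1c are lower in the WT pools, Ptpro is lower in the KO pools, and Wt1 runs from -0.25 to 0.35 within the KO genotype.

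The genes whose profile over the 4 pools lay nearest to the mean of the 8 were Gm9794, Trmt11, Abracl, Tomm70a and Kpna1, with a root mean square difference of 0.00454, 0.00556, 0.00796, 0.00827 and 0.00854 on the log2 scale among 13397 candidates. The candidates were genes other than the 8 with a mean of at least 1 FPKM. None of the 5 is a listed podocyte gene, and listed podocyte genes under 1 FPKM could not appear among them. The members themselves lay farther from their own mean, from 0.062 for Nphs1 to 0.234 for Wt1, so that 8.33% of the candidates were nearer to it than Nphs1 and 73.2% nearer than Wt1. With 4 pools such a likeness is a description only.

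Other genes of the podocyte did not pass the test either. Of 40 listed, 38 were tested, and Trpc6 and Lmx1b were under the filter, with 3 to 5 reads for Trpc6 and 0.214 to 0.408 FPKM for Lmx1b. By limma 0 of the 38 had an adjusted p under 0.05. The KO mean was the higher for 22 and the lower for 16, the median log2 difference was 0.03, and both KO pools lay above both WT pools for 12 and below for 5, beside 19.7% and 18.1% of all tested genes. An unadjusted p under 0.05 was found for 2 genes, beside 6.32% of all tested genes. Nck1, an adaptor that links phosphorylated nephrin to actin, had 4.77 and 5.13 FPKM in WT and 3.43 and 3.39 in KO, with both KO pools the lower (log2 difference -0.48, SE 0.12, adjusted p = 0.742 by limma). Lama5, a laminin chain of the glomerular basement membrane, had 27.3 and 29.8 in WT and 37.6 and 34.4 in KO, with both KO pools the higher (0.33, SE 0.12, adjusted p = 0.785 by limma). The unadjusted p of Lama5 was above 0.05 under quantile normalization, scaling to total reads, no trend, voom weights and the replicate block, and when any 1 pool was left out, and that of Nck1 when any pool but WT replicate 1 was left out.

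The differences between roles were not tested, and the counts without overlap stand beside 19.7% above and 18.1% below over all tested genes. The 6 tested slit diaphragm genes had a median log2 difference of -0.04, with 2 lower without overlap (Fat1 and Nck1) and 0 higher. The 8 cytoskeletal genes had a median of 0.10, with 2 higher without overlap. The 9 genes of the basement membrane and its adhesion had a median of 0.24, with 5 higher without overlap and 0 lower. Col4a3, a collagen chain of that membrane, had the highest difference of the 38, 0.38, yet its pools overlapped at 21.9 and 12.0 FPKM in WT and 19.3 and 23.4 in KO. The 5 transcription factor genes had a median of -0.12, with 1 higher and 2 lower without overlap, and the 10 other genes a median of -0.01, with 4 higher and 1 lower. Many of these genes, Nck1, Lama5 and Col4a3 among them, are also expressed outside the podocyte.

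**Figure D3:**
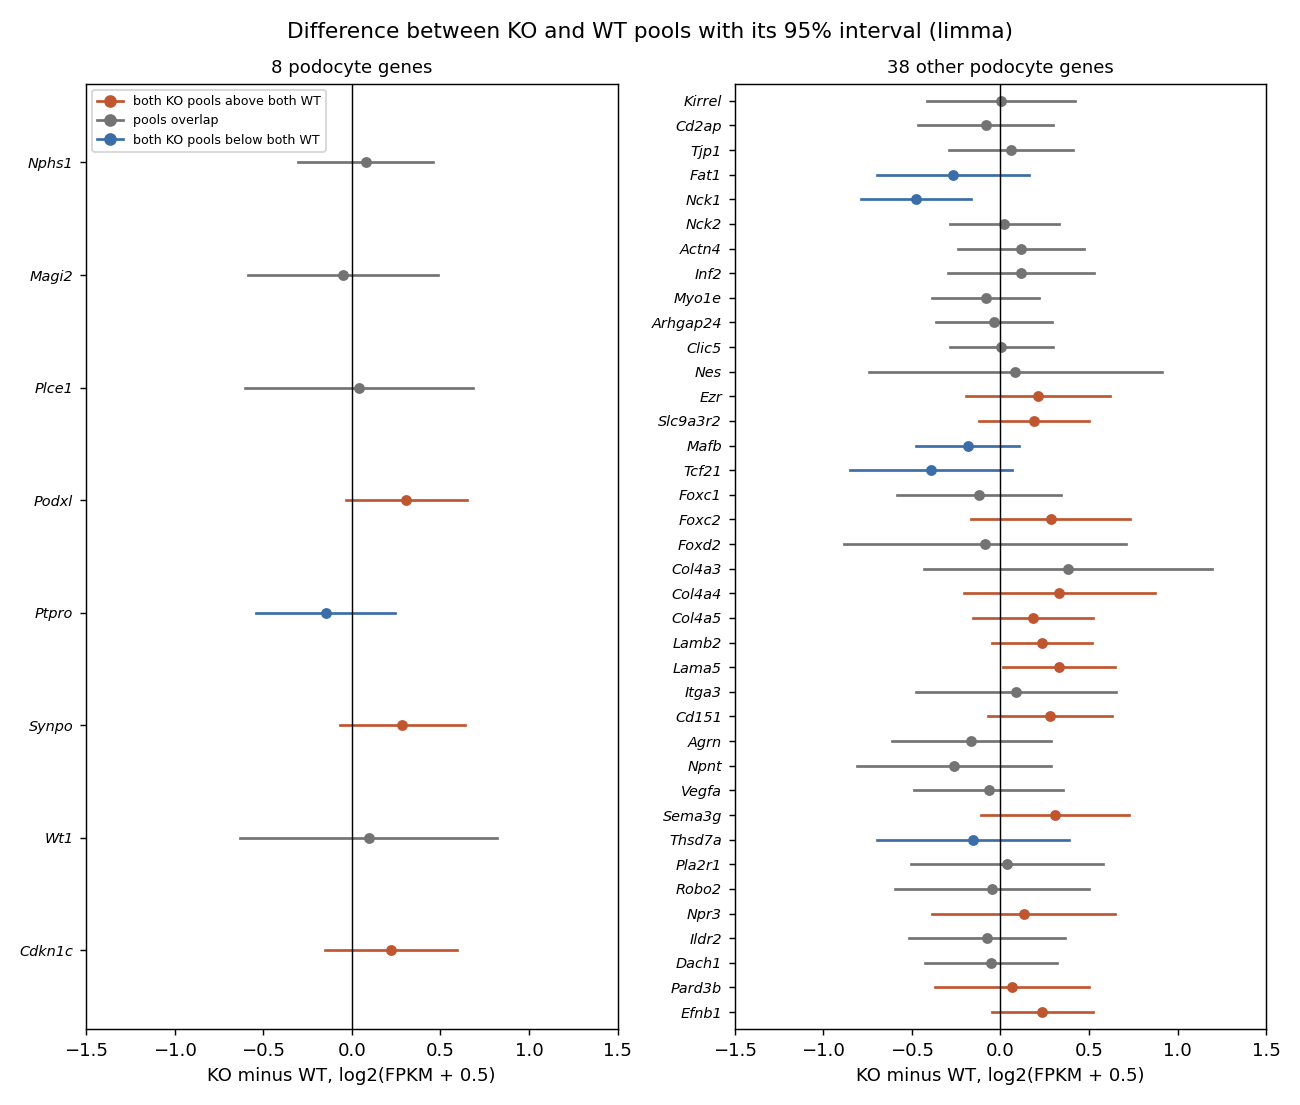
KO minus WT difference on the log2(FPKM + 0.5) scale with its 95% interval from limma for the 8 podocyte genes (left) and the 38 other podocyte genes tested (right), coloured by whether both KO pools lay above or below both WT pools. The intervals of the 8 include 0, and on the right only those of Nck1 (-0.48) and Lama5 (0.33) do not.

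Markers of the cells around the podocyte were read in the same fit, and for none of these lists did a gene have an adjusted p under 0.05. The 8 endothelial markers, of which 7 had the higher mean in KO (51.4% of all tested genes) and 4 were higher without overlap (19.7% of all tested genes), summed to 74.2 and 94.9 FPKM in WT and to 86.4 and 104 in KO, with a median log2 difference of 0.24. Flt1, a VEGF receptor, had the highest difference of these (0.50, SE 0.13, adjusted p = 0.757 by limma) and Plat the lowest (-0.13). Relative to the endothelial adhesion gene Pecam1, Podxl stood at 3.20 and 2.15 in WT and 2.80 and 2.28 in KO, and these ratios overlapped. The part of endothelial RNA in the Podxl values was not tested.

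The medians of the remaining glomerular lists were below 0. The 3 parietal epithelial markers had a lower KO mean, 2 without overlap (18.1% of all tested genes), with a median of -0.29 and sums of 41.5 and 60.8 FPKM in WT against 40.6 and 32.7 in KO, from -0.69 for Cldn1 to -0.24 for Pax8. The Cldn1 value rested on WT replicate 2, at 32.2 FPKM against 12.8 to 15.6 in the other pools, and was -0.18 without it and -1.20 without WT replicate 1. Of the 5 mesangial markers 4 were lower, 2 without overlap, with a median of -0.26 and sums of 38.0 and 50.5 against 43.5 and 44.0, from -0.33 for Gata3 (-0.16 without WT replicate 1, -0.49 without WT replicate 2) to 0.27 for Pdgfrb. These lists are short, and in each of them the WT replicate 2 sum was the highest of the 4 pools.

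The tubular lists spread farther than the podocyte genes. The 8 proximal tubule markers had a median of -0.36, with 4 lower and 1 higher without overlap (18.1% and 19.7% of all tested genes), and summed to 1542 and 1161 FPKM in WT and 863 and 1321 in KO. Their differences ran from -0.74 for Slc34a1 (-0.37 without KO replicate 1, -1.11 without KO replicate 2) to 0.73 for Slc22a6 (0.37 without WT replicate 2, 0.38 without KO replicate 2, 1.09 without WT replicate 1), and those at an unadjusted p under 0.05 (6.32% of all tested genes) were Lrp2 (-0.38) and Slc5a2 (-0.65), which both missed it with the replicate block and Lrp2 also with voom weights. With 1 pool left out Lrp2 missed it in every case, and Slc5a2 without WT replicate 1 or KO replicate 1, the latter with a difference of -0.43. The 7 injured tubule markers had a median of 0.13, with 4 higher and 1 lower without overlap (19.7% and 18.1% of all tested genes) and sums of 613 and 804 in WT and 818 and 703 in KO. Lcn2 (1.21), Krt20 (0.73) and Vcam1 (-1.91) had an unadjusted p under 0.05 and adjusted p-values of 0.613, 0.545 and 0.785 by limma. Vcam1 stood at 10.5 and 2.59 FPKM in KO and 14.6 and 31.0 in WT, leaving out KO replicate 2 gave a difference of -0.99 and leaving out KO replicate 1 gave -2.82, and its unadjusted p was above 0.05 with no filter, no trend or the replicate block and when any pool but KO replicate 1 was left out. Since FPKM are relative to a total set for each library, the podocyte values may depend on what the tubule contributes, and that part was not tested.

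**Figure D4:**
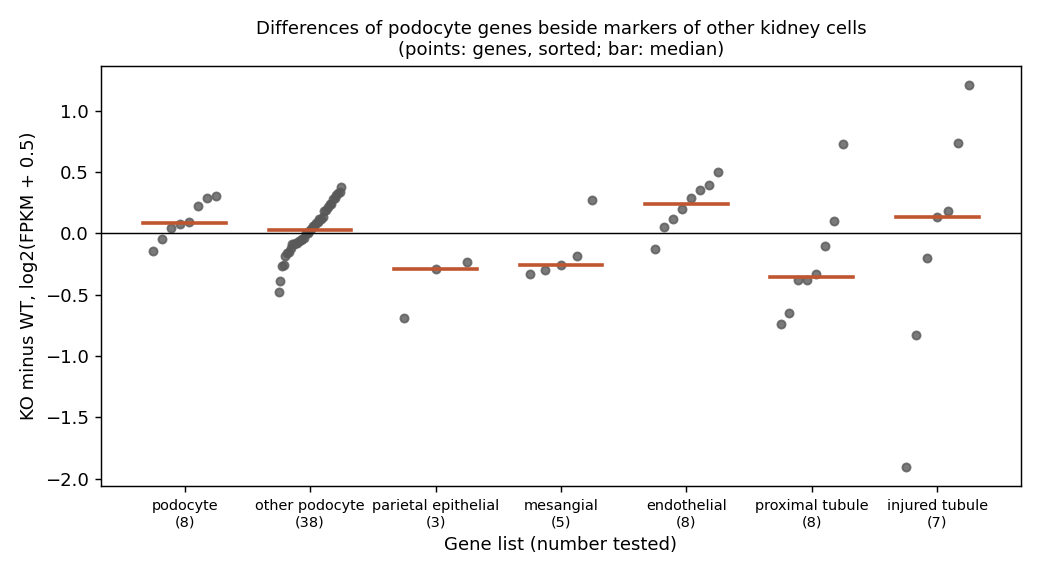
KO minus WT difference on the log2(FPKM + 0.5) scale of every tested gene in the podocyte lists and in lists of markers of other kidney cells, sorted within a list, with bars at the median. The 8 podocyte genes lie between -0.15 and 0.31, while the injured tubule markers run from -1.91 to 1.21.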

How the data were processed

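The authors sequenced poly(A) RNA of total kidney and deposited 1 table of FPKM per gene with columns of annotation (other fields such as position and length). Their processing notes name HISAT2 2.0.5, mm10 and GRCm38.p6, and the counting tool is not given in the sources used here. Every FPKM value was a whole multiple, within 0.01 read, of what 1 read is worth for that gene length, so reads were recovered (100% of values), with 16045724 to 16927742 per library. The deposited scaling between libraries was kept.

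The 15414 genes averaging 0.5 FPKM or more over the 4 libraries were tested two-sided with limma 3.58.1 (R 4.3.3, lmFit and eBayes with trend, no covariate) on log2(FPKM + 0.5), with Benjamini-Hochberg adjustment over all of them, after the script was tested on simulated data. This scale understates changes of low genes. Counting intervals are 95% exact Poisson and cover counting error only. Averaged over genes, pools of 1 genotype differed by more than counting noise (mean chi-square per gene 34.7 in WT and 24.7 in KO). Genes with many reads can weigh most in this mean, and it does not give the noise of the 8 podocyte genes. Positions were the same in GENCODE release M21 for all 8 genes. Python 3.11.15 was used for the remaining steps.

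Named are the 8 genes, Apela, the 5 nearest profiles and, from each other list, genes at an unadjusted p under 0.05 and the highest and lowest difference. Pecam1, Fat1, Trpc6, Lmx1b and the genes that share exonic bases with members were added after values were seen. The 8 genes and all lists were chosen with earlier results of these data known, and 1 listed gene is not reported here. Alternatives were other pseudocounts, filters and scalings, no trend, voom weights, a replicate block and leaving out each pool.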

Additional observations from a re-analysis of the deposited data

How the results depend on the processing

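No podocyte gene had an adjusted p under 0.05 under any alternative. With pseudocounts of 0.1 and 1, other filters and scalings, no trend, voom weights or the replicate block, all 70 differences of the 8 genes kept their direction (adjusted p 0.776 to 0.999 by limma). A filter at 1 FPKM left out Magi2 and Plce1. Scaling to the total reads on genes gave 2 genes with both KO pools below both WT pools, Magi2 and Ptpro, and 2 with both above. The shares of all tested genes without overlap were not counted under that scaling, so these counts have no background beside them. It moved the median of all genes to -0.06 and that of the 8 from 0.09 to 0.03, while the filter at 1 FPKM gave 0.16.

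Leaving out 1 pool, where the lone sample is assumed to vary like the other genotype, kept 27 of 32 directions. The median of the 8 ranged from 0.035 (without WT replicate 2) to 0.20 (without WT replicate 1). Differences that changed sign ranged from -0.034 (without WT replicate 2) to 0.19 for Nphs1, from -0.046 (without WT replicate 1; -0.02 without KO replicate 2) to 0.13 for Plce1, and from -0.21 (without KO replicate 1; -0.07 without WT replicate 2) to 0.40 for Wt1. Among other genes they ranged from -0.040 (without WT replicate 2) to 0.80 for Col4a3, from -0.49 to 0.018 (without KO replicate 2) for Pax8, from -0.083 (without WT replicate 1) to 0.62 for Pdgfrb and from -0.42 to 0.17 (without WT replicate 2) for Plat. The cause was not tested.

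The WT and KO pools share only a replicate number, and deviations of same-numbered pools had a correlation of -0.0017 across 15414 genes. The replicate block left the median at 0.09 and called 0 of the 8 genes. With 2 pools a genotype 0 of 15414 genes were called by limma (974 at an unadjusted p under 0.05), Apela with a log2 difference of -2.62 included, so a lack of calls does not bound the size of a difference.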
